A study of Arabidopsis thaliana with 4 samples.

Results

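The genes BBX26 to BBX32 of Arabidopsis thaliana encode the B-box zinc finger proteins that carry a single B-box and no CCT domain. They were chosen by gene identifier, as a family whose response to the jmj28-3 genotype was already known, and they are 7 of the 33602 genes with a deposited value. BBX26 (AT1G60250) was listed at 0 in all 4 libraries, and the other 6 members passed the filter on low values. The libraries were made from polyadenylated RNA of whole seedlings aged 12 days. The seedlings grew at 23 °C on Murashige and Skoog medium with 1% sucrose, in days of 16 h light and 8 h dark. The mutant line jmj28-3 (2 libraries) was set against the wild type Col-0 (WT, 2 libraries). JMJ28 is annotated as a jumonji domain protein, the domain of histone demethylases, and the labels do not give the kind of lesion in jmj28-3 or the number of seedlings behind a library.

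A B-box is a short fold held by zinc ions, through which these proteins bind other proteins. Small proteins with a B-box and little else can pair with larger B-box transcription factors or with the bZIP factor HY5 and keep them from acting on their targets, and several members are known in Arabidopsis for roles in light-grown development and in flowering time. BBX31 and BBX30 are known as the microproteins miP1a (BBX31) and miP1b (BBX30), which bind CONSTANS and the corepressor TOPLESS. BBX28 and BBX29 bind HY5, BBX32 binds the Polycomb-associated protein EMF1, and HY5 binds the promoters of BBX30 and BBX31.

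A B-box is visible in the coding sequences of 6 members, which are shown so that their likeness can be read directly. The pattern of 8 cysteine, aspartate and histidine codons that hold the zinc ions was found once in 6 of the 7 members and not in BBX26. Among the other 25 B-box genes it was found in 2 copies in 12 genes, in 1 copy in 11 genes and not in 2 genes. Those 2, BBX16 and BBX19, are B-box genes, so the pattern misses B-boxes. Its counts therefore cannot show that a member has only 1 B-box or that BBX26 has none. Capitals mark those 8 codons, and each line reads 5′ to 3′ on the coding strand of the RefSeq genome TAIR10.1. The stretches lie at chr1:25559423-25559536 (plus strand) for BBX27, chr4:13675865-13675975 (plus) for BBX28 and chr5:22115190-22115300 (minus) for BBX29. Those of the other members lie at chr4:8708974-8709084 (plus) for BBX30, chr3:7709463-7709573 (minus) for BBX31 and chr3:7413268-7413378 (minus) for BBX32.
BBX27: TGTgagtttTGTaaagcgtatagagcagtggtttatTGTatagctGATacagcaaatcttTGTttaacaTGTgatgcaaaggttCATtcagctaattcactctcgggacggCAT
BBX28: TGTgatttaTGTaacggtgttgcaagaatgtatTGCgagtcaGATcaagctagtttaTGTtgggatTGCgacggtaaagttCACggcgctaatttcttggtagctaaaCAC
BBX29: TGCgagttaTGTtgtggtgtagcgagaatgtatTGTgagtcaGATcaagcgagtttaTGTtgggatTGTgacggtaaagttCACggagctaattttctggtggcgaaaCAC
BBX30: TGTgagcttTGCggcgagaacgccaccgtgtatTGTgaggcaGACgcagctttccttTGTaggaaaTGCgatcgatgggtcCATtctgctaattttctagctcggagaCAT
BBX31: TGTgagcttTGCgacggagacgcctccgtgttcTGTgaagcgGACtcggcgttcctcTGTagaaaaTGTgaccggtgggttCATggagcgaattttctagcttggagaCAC
BBX32: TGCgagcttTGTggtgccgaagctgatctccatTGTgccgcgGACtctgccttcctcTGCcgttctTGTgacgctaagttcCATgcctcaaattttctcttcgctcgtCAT
Over 90 compared bases of this stretch, BBX28 and BBX29 were 88.9% identical and BBX30 and BBX31 were 81.1% identical. Every other pair of the 6 lay between 53.3% and 64.4%. The annotated proteins have 117 residues for BBX30, 121 for BBX31, 215 for BBX29, 223 for BBX28, 225 for BBX32, 251 for BBX26 and 385 for BBX27. No pair of members shared a run of 25 bases in their annotated transcripts, the length used here to look for reads that could be counted for the wrong member.

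The deposited values were FPKM, fragment numbers divided by transcript length and by library size, which allow levels of different genes to be compared per length. The library sums of FPKM ran from 983897 to 991510. Read totals are not given in the sources used here. From the steps between low FPKM values, the depth was estimated at 1.17 and 0.97 in the jmj28-3 libraries and 1.0 and 1.08 in the WT libraries, relative to WT replicate 1. These estimates are rough, and so are the fragment numbers below that rest on the same steps. JMJ28 (AT4G21430) had 3.65 and 3.33 FPKM in jmj28-3, against 3.80 and 5.54 FPKM in WT, a log2 change of -0.32 (SE 0.172, limma adjusted p = 0.327). The lesion is unknown, so that value is no check of the genotype labels. The labels do not say whether the 2 libraries of a genotype came from separate cultures, so p-values here measure only the spread between these libraries, which may be technical.

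The microprotein genes were low in the mutant line. BBX30 (AT4G15248, chr4:8708841-8709482, plus strand, 1 exon) had 2.38 and 2.13 FPKM in jmj28-3, against 23.22 and 19.72 FPKM in WT. The genotypes did not overlap, and the mean level of 2.25 ± 0.177 FPKM in jmj28-3 was 10.5% of the 21.5 ± 2.47 FPKM in WT (SD, n = 2 each), 9.52-fold lower. BBX31 (AT3G21890, chr3:7708833-7709933, minus strand, 1 exon) is the member closest to it over the compared B-box bases, at 81.1% identity. Over the aligned coding sequence, BBX30 was 73.5% identical to BBX31 and 73.4% identical to BBX27. The level of BBX31 was 2.84 and 3.14 FPKM in jmj28-3, against 17.53 and 12.20 FPKM in WT. The WT libraries stood further apart here than for BBX30, and the jmj28-3 mean of 2.99 ± 0.212 FPKM was 4.97-fold lower than the WT mean of 14.9 ± 3.77 FPKM. In jmj28-3, BBX31 lay above BBX30 in both libraries, with ratios of BBX31 to BBX30 of 1.19 and 1.47. In WT it lay below BBX30 in both, with ratios of 0.755 and 0.619. Because these are whole seedlings, fewer cells that express a gene and less RNA per cell cannot be told apart, for this and every other result.

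BBX32 (AT3G21150, chr3:7412445-7413727, minus strand, 1 exon), which binds EMF1, had 0.30 and 1.61 FPKM in jmj28-3, against 10.48 and 13.16 FPKM in WT. It was low in both mutant libraries, but those differed from each other more than for any other member relative to their level. The mean was 0.955 ± 0.926 FPKM in jmj28-3 and 11.8 ± 1.90 FPKM in WT, which is 8.08% of WT or 12.4-fold lower. The fragments behind these levels were estimated from the FPKM steps and the RefSeq transcript length, which need not be the length the authors used. They came to about 8 and 34 in jmj28-3 and about 230 and 310 in WT, so the fold of BBX32 rests on few fragments in jmj28-3. The same estimate for BBX30 gave about 23 and 17 fragments in jmj28-3 and 190 and 174 in WT. BBX32 overlaps its neighbour AT3G21140 by 13 bases on the same strand, and that gene had 13.14 and 14.39 FPKM in jmj28-3 and 12.04 and 14.57 FPKM in WT (limma adjusted p = 0.832).

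The partners of HY5 differed in size of change although they are the most alike of the members in coding sequence. BBX29 (AT5G54470, chr5:22114304-22115539, minus strand, 2 exons) had 2.23 and 2.28 FPKM in jmj28-3, against 11.47 and 11.77 FPKM in WT. Replicates lay close together, and the jmj28-3 mean of 2.25 ± 0.0354 FPKM was 19.4% of the WT mean of 11.6 ± 0.212 FPKM, 5.15-fold lower. BBX28 (AT4G27310, chr4:13675537-13677055, plus strand, 2 exons) had 58.57 and 58.00 FPKM in jmj28-3, against 83.99 and 80.68 FPKM in WT. It was lower in both jmj28-3 libraries, but its mean of 58.3 ± 0.403 FPKM was still 70.8% of the WT mean of 82.3 ± 2.34 FPKM. The ratio of BBX28 to BBX29 was 26.3 and 25.4 in jmj28-3, against 7.32 and 6.85 in WT.

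BBX27 moved the other way. BBX27 (AT1G68190, chr1:25558794-25561248, plus strand), the member with the longest protein and 3 annotated mRNAs, had 41.32 and 41.33 FPKM in jmj28-3, against 25.82 and 24.06 FPKM in WT. The mean of 41.3 ± 0.00707 FPKM in jmj28-3 was 1.66-fold higher than the 24.9 ± 1.24 FPKM in WT. BBX26 (chr1:22217077-22217832, minus strand, 1 exon) was listed at 0 in both jmj28-3 libraries and both WT libraries.

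**Figure D1:**
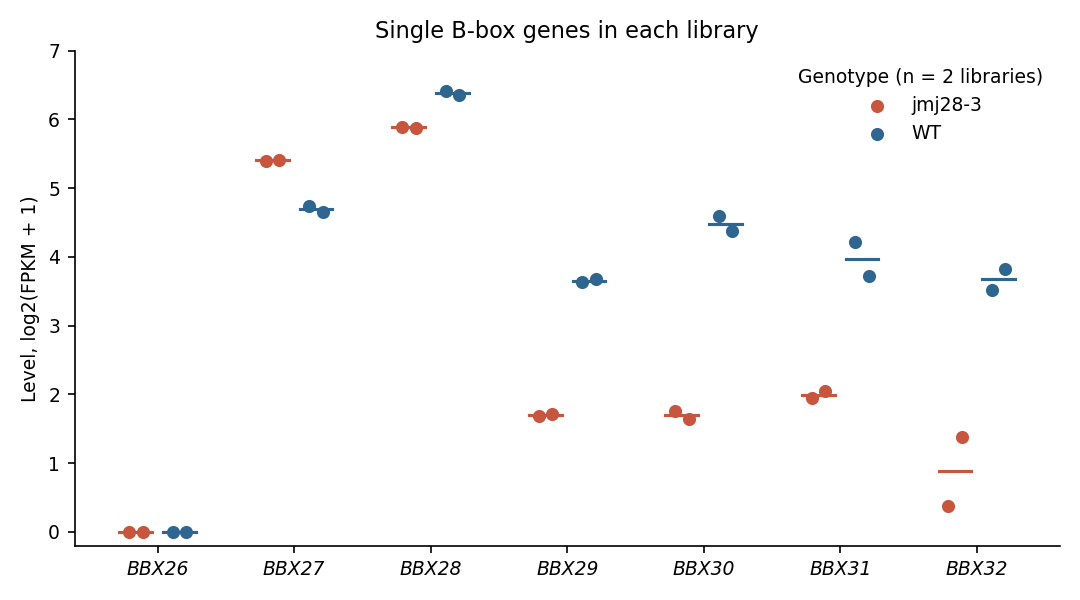
Level of the 7 single B-box genes as log2(FPKM + 1), with 1 point per library and a line at the mean of the 2 libraries, jmj28-3 left of WT for each gene. BBX29 to BBX32 lie at 0.30 to 3.14 FPKM in jmj28-3 and 10.48 to 23.22 FPKM in WT before the log2 step, BBX26 lies at 0, and BBX27 is the one member whose jmj28-3 points are higher.

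On the log2(FPKM + 1) scale, the changes of jmj28-3 minus WT were -2.79 for BBX32 (SE 0.333), -2.78 for BBX30 (SE 0.113), -1.97 for BBX31 (SE 0.174), -1.95 for BBX29 (SE 0.094), -0.49 for BBX28 (SE 0.053) and 0.71 for BBX27 (SE 0.0648). The added 1 makes the changes of low genes smaller. The log2 ratio of mean FPKM is another measure, which adds nothing and takes the mean before the log. It was -3.63 for BBX32, -3.25 for BBX30, -2.37 for BBX29 and -2.31 for BBX31, so the order of BBX29 and BBX31 turned. Among 20232 tested genes, counted from the largest fall, BBX32 ranked 1, BBX30 ranked 2, BBX31 ranked 20, BBX29 ranked 21 and BBX28 ranked 859. Counted from the largest rise, BBX27 ranked 562. The first ranks depend on the scale and the libraries. By the ratio of mean FPKM, AT3G09450 (11.5-fold lower) and AT1G29720 (10.6-fold lower) fell further than BBX30 (9.52-fold lower). Without jmj28-3 replicate 1, the log2 change was -2.96 for AT2G15020 and -2.84 for BBX30, both further from 0 than the -2.29 of BBX32. These ranks come from the contrast for which the genes were chosen, so they are given as a description and not tested.

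In limma, 5 of the 6 members tested were called lower at an adjusted p under 0.05 and 1 was called higher, where 3.79% of all tested genes were called lower, 4.18% higher and 7.97% in either direction. The libraries of the genotypes did not overlap for any of the 6, against 55.2% of all tested genes without overlap, and 5 lay lower without overlap, against 32.7%. A log2 change of -1 or below was found in 4 members, against 0.657% of all tested genes. The genes were chosen with these differences known, so nothing is read from the counts. With any 1 library left out, fewer of the 6 members were called, and fewer of all tested genes as well. The direction of each of the 6 was the same in every alternative and every left-out library. As the genotypes did not overlap, leaving out 1 library could not have turned it. The filter, variance trend and block settings do not alter the estimated change, so the kept direction is no test of these genes. With a library left out, the change ranged from -3.29 to -2.29 for BBX32, -2.90 to -2.67 for BBX30, -2.22 to -1.73 for BBX31, -1.97 to -1.94 for BBX29, -0.52 to -0.46 for BBX28 and 0.66 to 0.76 for BBX27.

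Added together, the members had 107.6 and 108.5 FPKM in jmj28-3, against 172.5 and 161.6 FPKM in WT. BBX29 to BBX32 made up 7.7 and 9.2 FPKM of the sum in jmj28-3, against 62.7 and 56.8 FPKM in WT. Their share of the summed transcript level was therefore 7.2% and 8.4% in jmj28-3 and 36.3% and 35.2% in WT. BBX28 remained the member with the highest level in every library, at 54.4% and 53.5% of the sum in jmj28-3 and 48.7% and 49.9% in WT. BBX27 and BBX28 together held 92.8% and 91.6% of the sum in jmj28-3, against 63.7% and 64.8% in WT. The order of levels in jmj28-3 was BBX28, BBX27, BBX31, then BBX29 and BBX30, whose libraries overlapped, then BBX32. In WT the order was BBX28, BBX27, BBX30, then BBX31, BBX32 and BBX29, and in that last group BBX32 overlapped both of the others.

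**Figure D2:**
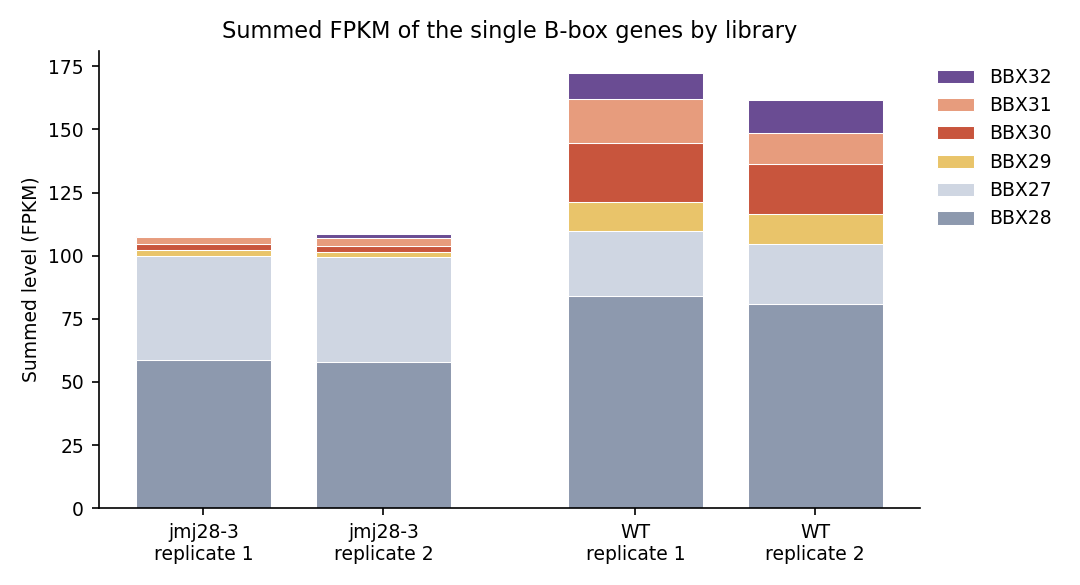
Stacked FPKM of the single B-box genes in each library, on an axis that starts at 0, with the jmj28-3 libraries left of the WT libraries. The jmj28-3 stacks reach 107.6 and 108.5 FPKM and consist almost wholly of BBX28 and BBX27, whereas the WT stacks reach 172.5 and 161.6 FPKM.

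The members with like B-box coding stretches also shared sequence upstream, which the choice of genes did not use. The 600 bases before each start codon were aligned for every pair of the 7 members. BBX30 and BBX31 had the highest local alignment score, 53, over 184 aligned bases of which 129 (70.1%) were identical. BBX28 and BBX29 came next with a score of 30 over 55 aligned bases, 45 of them (81.8%) identical. The other 19 pairs scored 12 to 18. Counted from the start codon, the shared stretch spans positions -229 to -41 in BBX30 and -282 to -95 in BBX31. The annotated 5′ UTR has 40 bases in BBX30 and 270 bases in BBX31, so the stretch lies upstream of the annotated BBX30 transcript and mostly inside the annotated BBX31 transcript. The 250 bases before the annotated start of BBX30, chr4:8708591-8708840 on the plus strand of TAIR10.1, are shown with the shared distal core, the G-box and the TATA run in capitals.
BBX30 upstream: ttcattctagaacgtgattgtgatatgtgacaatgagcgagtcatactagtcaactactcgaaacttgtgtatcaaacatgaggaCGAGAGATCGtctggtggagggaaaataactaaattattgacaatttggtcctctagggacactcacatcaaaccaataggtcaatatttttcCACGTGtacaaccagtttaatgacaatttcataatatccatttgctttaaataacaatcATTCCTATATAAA

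Sites within the shared stretch are set beside each other here, with capitals for bases that are identical in both genes. The distal site has 20 of 25 bases identical and lies at chr4:8708667-8708691 (plus strand) in BBX30 and chr3:7709906-7709930 (minus strand) in BBX31. The site around the G-box has 17 of 22 bases identical and lies at chr4:8708760-8708781 and chr3:7709812-7709833. The run with a TATA box is identical over 13 bases and lies at chr4:8708828-8708840 and chr3:7709758-7709770. The printed site shared by BBX28 and BBX29 has 22 of 24 bases identical and lies in both annotated 5′ UTRs, at chr4:13675694-13675717 (plus) and chr5:22115493-22115516 (minus).
BBX30 distal: AcATGAGGaCGAGAGATCGtcTGGt
BBX31 distal: AtATGAGGtCGAGAGATCGctTGGa
BBX30 G-box: AtATTttTCCACGTGTaCAACc
BBX31 G-box: AgATTcaTCCACGTGTcCAACa
BBX30 TATA: ATTCCTATATAAA
BBX31 TATA: ATTCCTATATAAA
BBX28 upstream: AATCACAgAAAAcTCGCCACGAAA
BBX29 upstream: AATCACAtAAAAgTCGCCACGAAA
The core CGAGAGATCG, chosen after the alignment was seen, occurs on either strand in 25 of 27443 windows of 600 bases before a start codon (0.0911%), among them those of BBX30 and BBX31. The G-box CACGTG, a sequence bound by HY5 and by PIF factors, was present in the windows of 3 of the 7 members, BBX27, BBX30 and BBX31, and in 10.6% of all windows. The related CACGTC, which shares its first bases with the G-box but cannot lie on the same site, was present in BBX27 and BBX32 and in 11.0% of all windows. The core of the evening element, AAATATCT, was present in BBX27 and BBX29 (9.91% of windows) and the CCA1 site AAAAATCT in BBX26 and BBX28 (15.5%). Both strands were searched for each. The G-box lay at position -108 from the start codon in BBX27, -112 in BBX30 and -161 in BBX31. It lay before the annotated transcript start in BBX30 and after it in BBX27 and BBX31. No motif searched was held by every member that was lower, and the part of these motifs in the members' values was not tested.

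**Figure D3:**
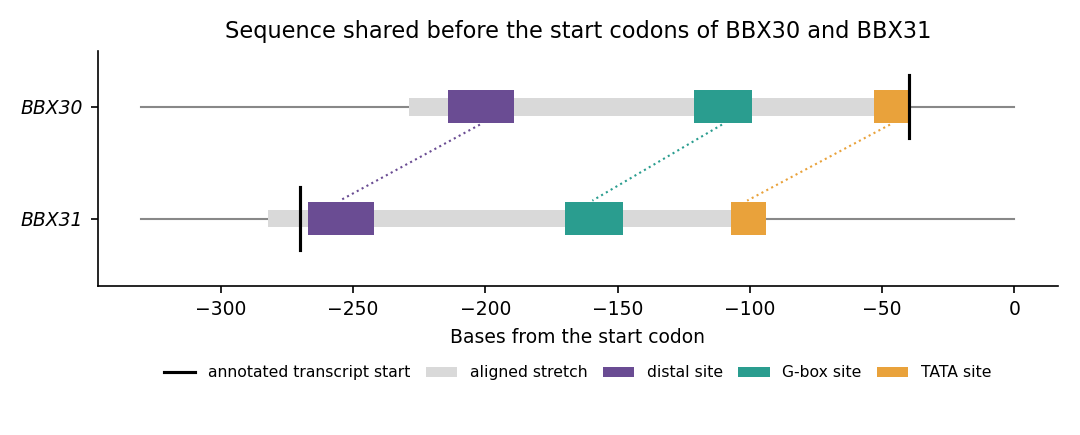
Sequence shared by BBX30 and BBX31, in bases from the start codon (0, at the right), with the aligned stretch in grey, the 3 sites printed above as coloured boxes joined by dotted lines, and the annotated transcript start as a black bar. The sites have the same order in both genes, and all 3 lie before the annotated start of BBX30 and after that of BBX31.

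Genes beside the members on the chromosome were called about as often as all tested genes. Of the 28 nearest annotated protein-coding genes, 2 on each side of every member, 26 were in the table and 14 were tested, with a median log2 change of -0.04 beside -0.03 for all tested genes. In limma 1 of the 14 was called higher and 0 lower, where 7.97% of all tested genes were called in either direction. That gene was PBP1 (AT5G54490), a calcium-binding partner of the kinase PINOID that lies 5562 bases from BBX29. PBP1 had 8.11 and 8.12 FPKM in jmj28-3, against 2.97 and 3.72 FPKM in WT, 2.43-fold higher with a log2 change of 1.07 (SE 0.12, limma adjusted p = 0.00879). The call was lost when either jmj28-3 library was left out, with an adjusted p of up to 0.113. The nearest genes of both microprotein genes are themselves B-box genes in tail to tail arrangement. BBX9, 284 bases from BBX30, was listed at 0 in all libraries, and BBX10, 486 bases from BBX31, had at most 0.05 FPKM. MNS2, a mannosidase gene 48 bases from BBX32, had 12.59 and 12.60 FPKM in jmj28-3 and 13.36 and 14.07 FPKM in WT (limma adjusted p = 0.42).

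Among the other B-box genes, which carry a second B-box, a CCT domain or both, changes ran in either direction. Of 22 tested, 4 were called higher and 5 lower in limma, with 13 not called and a median log2 change of 0.04. Of all tested genes, 4.18% were called higher and 3.79% lower. BBX14 had 251.56 and 260.48 FPKM in jmj28-3, against 105.95 and 124.11 FPKM in WT, 2.23-fold higher (log2 1.15, SE 0.0826, adjusted p = 0.0031). BBX17 had 11.61 and 11.42 FPKM in jmj28-3, against 2.35 and 4.01 FPKM in WT, 3.62-fold higher (log2 1.61, SE 0.197, adjusted p = 0.0114). BBX14 and BBX17 belong to the group with 1 B-box and a CCT domain. BBX18, a negative factor in seedling light responses, had 21.20 and 18.31 FPKM in jmj28-3, against 39.23 and 43.23 FPKM in WT, 2.09-fold lower (log2 -1.03, SE 0.0942, adjusted p = 0.00541). BBX25, an interactor of HY5, was 1.81-fold lower (log2 -0.84, adjusted p = 0.0196). BBX4 and BBX6 were also called higher, and BBX3, BBX19 and BBX24 lower, with log2 changes of 0.54, 0.61, -0.55, -0.71 and -0.29. The call of BBX17 was lost without either jmj28-3 library (adjusted p up to 0.131), and those of BBX14 and BBX18 without jmj28-3 replicate 2 (0.0644 and 0.0671). The call of BBX25 was lost without jmj28-3 replicate 2 or either WT library, and with no filter or no variance trend (up to 0.115). BBX3, BBX19 and BBX24 lost their calls whichever library was left out. BBX4 lost its call without either jmj28-3 library or WT replicate 1, and BBX6 without either jmj28-3 library. With no filter or no variance trend, BBX3, BBX4 and BBX24 lost theirs. BBX3 and BBX24 also did so with replicate number as a block. CONSTANS (BBX1), the partner of BBX30 and BBX31, had 0.99 and 0.50 FPKM in jmj28-3 and 0.53 and 0.50 FPKM in WT (adjusted p = 0.628).

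**Figure D4:**
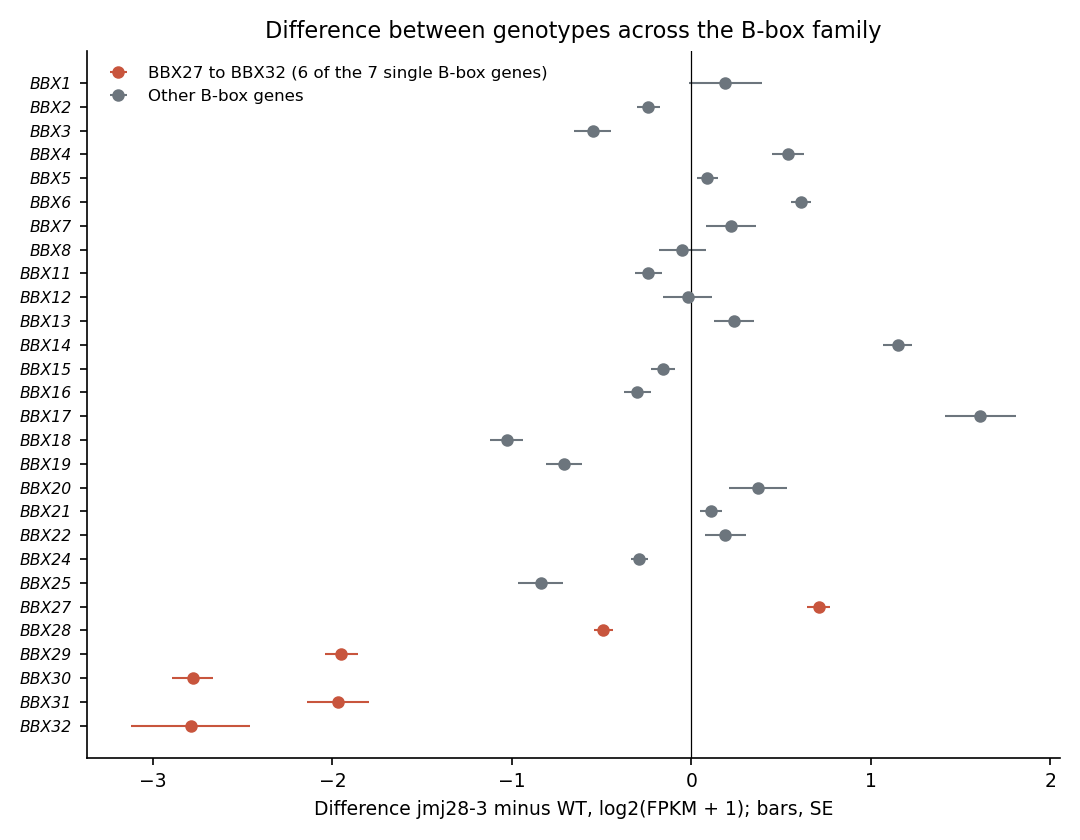
Log2 change of jmj28-3 minus WT for each tested B-box gene, on the log2(FPKM + 1) scale with bars for the SE from limma. BBX32, BBX30, BBX31 and BBX29 lie at -2.79 to -1.95, and the other B-box genes lie between BBX18 at -1.03 and BBX17 at 1.61.

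Genes for partners and regulators of the single B-box proteins were split in direction. Of 23 tested, 5 were called higher, 6 lower and 12 not called, with a median log2 change of 0.01. The shares over all tested genes were 4.18% higher and 3.79% lower. HY5 had 16.07 and 16.51 FPKM in jmj28-3, against 23.52 and 25.10 FPKM in WT, 1.49-fold lower (log2 -0.55, SE 0.0708, limma adjusted p = 0.0134). Its close relative HYH was 1.57-fold lower, at 54.97 and 53.73 FPKM in jmj28-3 against 85.67 and 84.55 FPKM in WT (adjusted p = 0.004). SPA3, which works with the ubiquitin ligase COP1 that marks HY5 for degradation, had 23.56 and 19.55 FPKM in jmj28-3, against 32.88 and 33.00 FPKM in WT (adjusted p = 0.0264). COP1, SPA1 and SPA4 were called lower as well, with log2 changes of -0.35, -0.33 and -0.53, and COP1 and SPA1 lost the call under median-of-ratios scaling. PIF4, a bHLH factor that promotes elongation, was 1.65-fold higher, at 82.44 and 78.63 FPKM in jmj28-3 against 45.35 and 52.18 FPKM in WT (adjusted p = 0.00917). PIF5 was 1.49-fold higher (log2 0.57, adjusted p = 0.00454), and the far-red light receptor gene PHYA was 1.55-fold higher (log2 0.61, adjusted p = 0.00841). CRY1 and PIF1 were called higher, with log2 changes of 0.38 and 0.40. With no filter, COP1, SPA1, SPA3, SPA4 and PIF1 lost the call. With no variance trend, COP1, SPA1, SPA3, CRY1 and PIF1 did. With replicate number as a block, COP1, SPA1, SPA4, CRY1 and PIF1 did. The genes for TOPLESS (TPL) and EMF1, partners of BBX30 to BBX32, gave no call, with an adjusted p of 0.732 and 0.971, and JMJ14 also gave none (0.646). Each of these calls was lost in at least 1 of the 4 fits without a library. HY5, COP1, SPA1, SPA4, PHYA, CRY1 and PIF1 lost theirs in all 4 (adjusted p up to 0.122, 0.237, 0.232, 0.179, 0.101, 0.13 and 0.277). SPA3 lost its call without jmj28-3 replicate 2 or either WT library (up to 0.133), PIF4 without either jmj28-3 library (up to 0.0992), and HYH and PIF5 without jmj28-3 replicate 2 alone (0.0681 and 0.0744).

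HY5 and UV-B responsive genes, the targets through which light-grown seedlings make flavonoids and protective proteins, had 10 of 18 tested members called lower and 0 called higher in limma. Their median log2 change was -0.61, where all tested genes had -0.03. Of all tested genes, 3.79% were called lower and 4.18% higher. ELIP1, a chloroplast protein of high light, had 57.09 and 81.89 FPKM in jmj28-3, against 161.20 and 161.12 FPKM in WT, 2.32-fold lower (log2 -1.22, SE 0.161, adjusted p = 0.014). MYB12, which turns on flavonol genes, had 1.77 and 2.09 FPKM in jmj28-3, against 4.57 and 5.40 FPKM in WT, 2.58-fold lower (adjusted p = 0.0136). The related MYB111 was 2.13-fold lower (adjusted p = 0.0306), and the plastid sigma factor gene SIG5 was 1.76-fold lower (adjusted p = 0.00803). DFR, RUP1, LDOX and UVR3 had higher means in jmj28-3 and were not called. Their log2 changes were 0.72, 0.32, 0.21 and 0.1 (limma adjusted p = 0.26, 0.193, 0.755 and 0.705). The enzyme genes CHS, TT5, F3H and FLS1 of the flavonol path were called lower, with log2 changes of -0.35, -0.62, -0.61 and -0.76. RUP2 and CRY3 were called lower as well, with -0.69 and -0.41. With no filter, MYB111 and CRY3 lost the call. With no variance trend, ELIP1, CHS and CRY3 did, and with replicate number as a block, MYB111, CHS and CRY3 did. The count without 1 library ranged from 1 to 5, against 10. Calls were lost for ELIP1 without either WT library (up to 0.102), for MYB12, MYB111, CHS and CRY3 whichever library was left out (up to 0.1, 0.148, 0.121 and 0.184), and for SIG5 without jmj28-3 replicate 2 or WT replicate 2 (up to 0.076). F3H and FLS1 lost theirs without jmj28-3 replicate 2 alone (0.0644 and 0.0559), TT5 without either jmj28-3 library (up to 0.0644), and RUP2 without jmj28-3 replicate 2 or either WT library (up to 0.0962).

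**Figure D5:**
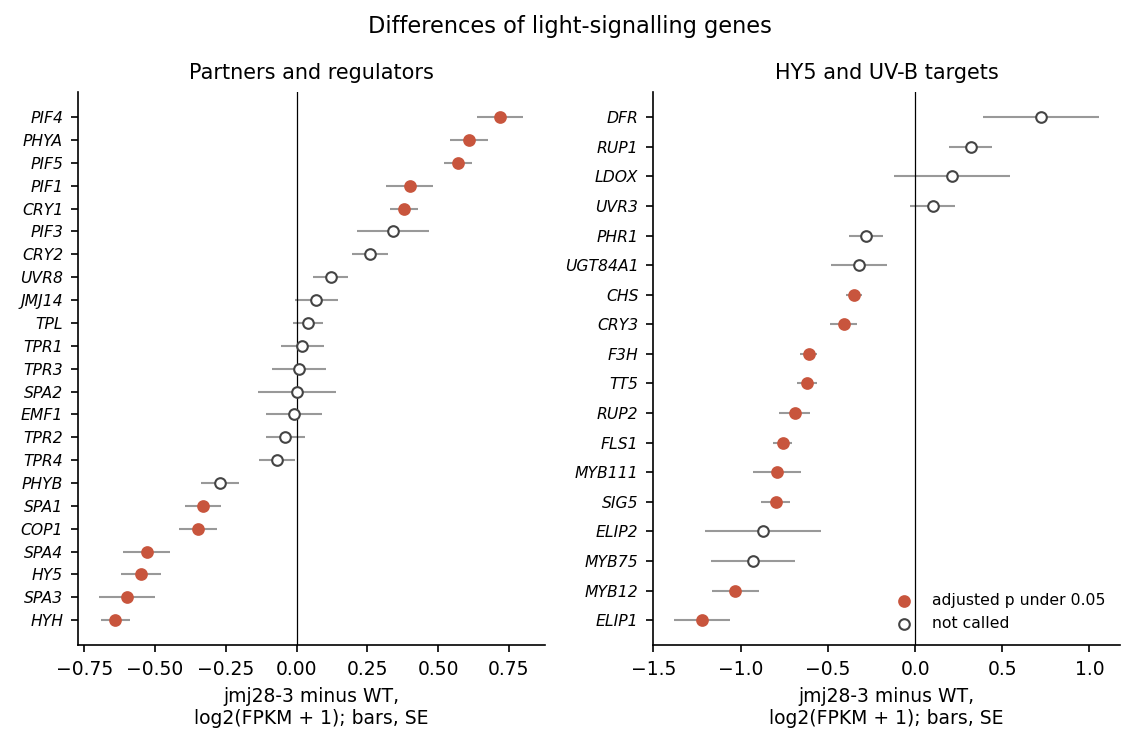
Log2 change of jmj28-3 minus WT on the log2(FPKM + 1) scale for each tested partner or regulator (left) and each HY5 or UV-B target (right), with bars for the SE from limma and filled points for an adjusted p under 0.05. Filled points lie on both sides of 0 on the left, 5 higher and 6 lower, and all 10 on the right lie below 0.

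Among 12 tested genes of shade and hypocotyl growth, 2 were called higher, 0 lower and 10 not called, with a median log2 change of 0.22. The shares over all tested genes were 4.18% higher and 3.79% lower. PAR1, an atypical bHLH protein induced by shade, had 16.88 and 15.98 FPKM in jmj28-3, against 5.86 and 4.93 FPKM in WT, 3.05-fold higher (log2 1.45, SE 0.103, limma adjusted p = 0.00304). ATHB2, a homeodomain gene of the shade response, was 1.66-fold higher (log2 0.66, adjusted p = 0.0191). The call of PAR1 was lost without jmj28-3 replicate 2 (adjusted p = 0.0629), and that of ATHB2 whichever library was left out and with no filter (up to 0.165).

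Of 13 tested clock genes, 3 were called lower, 0 higher and 10 not called, with a median log2 change of -0.19. Over all tested genes, 3.79% were called lower and 4.18% higher. PRR9, a morning repressor of the clock, had 11.10 and 9.76 FPKM in jmj28-3, against 29.77 and 29.08 FPKM in WT, 2.82-fold lower (log2 -1.41, limma adjusted p = 0.00235), and it kept its call without each library (up to 0.0405). CCA1 had 83.67 and 70.57 FPKM in jmj28-3, against 112.02 and 112.50 FPKM in WT (log2 -0.54, adjusted p = 0.0249). AT5G52660 had 5.54 and 5.58 FPKM in jmj28-3, against 8.89 and 8.98 FPKM in WT (log2 -0.60, adjusted p = 0.0181). The call of CCA1 was lost without jmj28-3 replicate 2 or either WT library, and with no filter or no variance trend. That of AT5G52660 was lost whichever library was left out, and with replicate number as a block. B-box genes are known to change with the time of day, the labels give no hour of harvest, and the part of the clock or the hour in the members' values was not tested.

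Markers of other organs were read beside these values. Of 6 leaf markers none was called in limma, where 7.97% of all tested genes were called in either direction. The summed level of the leaf markers was 50661 and 49306 FPKM in jmj28-3, against 51245 and 49158 FPKM in WT. Of 7 root markers 1 was called lower (SCR, adjusted p = 0.0364, and up to 0.219 without a library), and their summed level was 1312 and 1254 FPKM in jmj28-3, against 1372 and 1342 FPKM in WT. That sum was mostly PYK10, with 1178.39 and 1128.36 FPKM in jmj28-3 and 1221.49 and 1183.22 FPKM in WT. The median log2 change of the 7 was -0.37, and 5 of them lay lower without overlap and 0 higher, where 32.7% and 22.4% of all tested genes did so. EXPA7, COBL9, CASP1 and SCR were at 71.6%, 68.2%, 76.4% and 76.5% of their WT means, and the first 3 were not called (adjusted p = 0.0973, 0.0956 and 0.0589). The 4 seed markers summed to at most 0.66 FPKM in any library. The flower markers summed to 4.85 and 6.05 FPKM in jmj28-3 and 10.17 and 3.86 FPKM in WT, with AP1 at 0 in every library. The part of root tissue in the members' values was not tested.

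Genes outside the family whose levels followed the members most closely were found by the root mean square distance between centred log2(FPKM + 1) values over the 4 libraries. Nearest to BBX29 was SK4, a SKP1-like gene, at a distance of 0.0612, with 3.58 and 3.81 FPKM in jmj28-3 and 16.45 and 18.94 FPKM in WT. Next for BBX29 was AT5G20790, with 6.99 and 7.94 FPKM in jmj28-3 and 28.21 and 28.53 FPKM in WT (0.0934). Nearest to BBX31 were AT3G09450 (0.044) and AT3G44450 (0.152), the second with 23.23 and 21.81 FPKM in jmj28-3 and 86.20 and 68.17 FPKM in WT. AT3G09450 was low, with 0.38 and 0.39 FPKM in jmj28-3 and 5.19 and 3.63 FPKM in WT. Its mean was 11.5-fold lower, against 4.97-fold for BBX31, so the small distance depends on the added 1. With a pseudocount of 0.1, the log2 changes were -3.2 for AT3G09450 and -2.25 for BBX31. Nearest to BBX30 were AT2G15020 (0.211), with 15.26 and 9.68 FPKM in jmj28-3 and 80.62 and 84.00 FPKM in WT, and the receptor-like kinase gene AT1G29720 (0.311). BBX32 had more distant neighbours, the defensin-like gene AT5G33355 (0.42) and again AT1G29720 (0.434). These genes were picked for their likeness over 4 libraries, so no test is given for them.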

How the data were processed

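Polyadenylated RNA of whole seedlings was measured in 2 jmj28-3 and 2 WT libraries. The authors deposited FPKM, 1 column per library, and 0 value columns were left unmatched. TopHat, RSEM, edgeR and the build TAIR10 are named, without settings, per the submitters' processing notes; strand use is not stated in them. FPKM are not counts, so log2(FPKM + 1) was tested with limma 3.58.1 in R 4.3.3 on the 20232 genes with a mean FPKM of at least 0.5 over the 4 libraries. Genotype was the only term, eBayes used a variance trend, and tests were two-sided with Benjamini-Hochberg adjustment over all tested genes at 0.05. Every adjusted p comes from this fit or its alternatives. The fit was also run on simulated data, whose spread followed the mean level alone and was not particular to each gene. That run therefore does not check the calls made here. Log2 changes on this scale understate those of low genes; folds are ratios of mean FPKM.

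The members and the gene lists were chosen with earlier results of these data known. From each list, up to 4 called genes with the largest change were named. JMJ28, called or overlapping neighbours and, for members changed by at least 1 log2 unit, the 2 most alike genes were added. BBX1, BBX3, BBX4, BBX6, BBX9, BBX10, BBX19, BBX24, HY5, COP1, SPA1, SPA4, CRY1, PIF1, PIF5, TPL, EMF1, JMJ14, CHS, TT5, F3H, FLS1, RUP1, RUP2, CRY3, UVR3, DFR, LDOX, SCR, PYK10, EXPA7, COBL9, CASP1, AP1 and MNS2 fall outside it and were added with their values in view. Positions, symbols and sequences are RefSeq's for TAIR10.1, in which 32835 of 33602 identifiers were found; the deposited table holds no coordinates. Sequences were aligned with Biopython 1.88. Fragment numbers were estimated from the steps between low FPKM values.

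The fit was repeated without each library, with replicate number as a block, without the variance trend, under quantile normalization or median-of-ratios scaling, with pseudocounts of 0.1 and 0.5, and with a minimum mean FPKM of 2 or none.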

Additional observations from a re-analysis of the deposited data

How the results depend on the processing

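The direction of each of the 6 tested members was the same in every alternative run. Most of these runs could not have turned it, because the genotypes did not overlap and several settings leave the estimated change as it is. Counts of calls differed between runs, and the cause was not tested. Genes called higher numbered 846, and 526 with no filter, 469 with no variance trend and 534 with replicate number as a block. Genes called lower numbered 767, and 351, 287 and 328 under the same alternatives. Leaving out a library gave 70 to 398 higher and 21 to 164 lower. For the single B-box genes, leaving out a library gave 0 to 1 higher and 3 to 4 lower. For the other B-box genes it gave 0 to 4 higher and 0 to 2 lower, and their lower count of 5 became 2 with no filter, 2 with no variance trend and 3 with the block. For partners and regulators it gave 0 to 2 higher and 0 to 2 lower. Their higher count of 5 became 3 with no variance trend and 3 with the block, and their lower count of 6 became 2 with no filter, 3 with no variance trend and 3 with the block. For HY5 and UV-B targets it gave 0 to 1 higher and 1 to 5 lower, for shade and growth genes 0 to 1 higher and 0 lower, for clock genes 0 higher and 1 to 3 lower, and for genes beside the members 0 to 1. The shade and growth list had 1 higher with no filter. The clock list had 1 higher with a pseudocount of 0.1, a minimum mean FPKM of 2 or median-of-ratios scaling. The labels do not say that replicate numbers mark a shared batch, and deviations of same-numbered libraries correlated at -0.133 across 20232 genes. A block with crossed numbers, chosen after seeing the data, gave 1158 higher and 1129 lower genes, 1 shade and growth gene lower and 2 genes called beside the members. The low fragment numbers behind BBX32 in jmj28-3 limit its fold.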
